A study of Mus musculus with 9 samples.

Results

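The mouse Hox genes are homeobox transcription factor genes that lie in 4 chromosomal clusters, Hoxa, Hoxb, Hoxc and Hoxd. Members were the transcript clusters (the probes an array groups for 1 transcript) with a single gene symbol made of Hox, a cluster letter and a paralog number. These were 33 of 30050 genes in the table: 8 Hoxa, 9 Hoxb, 9 Hoxc and 7 Hoxd genes. Each member had 1 transcript cluster. The rule itself used symbols only. The family, however, was selected on the DOX minus Con difference of Hoxa5, seen earlier among the largest on these arrays, so that difference is given as a description with no test. Hoxa7, Hoxa9, Hoxb4, Hoxd3 and Hoxd4 shared 4 clusters with a second symbol and were not analysed here.

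RNA came from cells that the labels name HL-1, a line of immortalized mouse atrial cardiomyocytes grown in serum-containing medium. The groups were a control given phosphate-buffered saline (Con), cells with doxorubicin at 0.3 µM (DOX), and cells with the same dose plus interferon gamma at 20 ng/ml (DOX+IFN-γ). Doxorubicin is an anthracycline drug that poisons topoisomerase II, and interferon gamma is a cytokine of immune cells. Each of the 3 groups had 3 arrays, 9 in all, and all were of this 1 line. Interferon gamma without doxorubicin was not analysed here, and no treatment time was given in the sources used here. Whether replicates were separate cultures is not said either, so that p-values reflect the spread among these arrays alone, which may be technical.

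Hox proteins bind DNA through the homeodomain, often together with TALE homeodomain cofactors of the Pbx, Meis and Prep families, and set cell identity along the body axis. Genes of the same paralog number in different clusters arose by duplication. Within a cluster, gene order runs with paralog number, and in embryos low-numbered genes are used earlier and further forward. Polycomb complexes keep silent Hox genes under histone H3 lysine 27 methylation, trithorax complexes maintain active ones, and retinoic acid switches on low-numbered members. In heart development, low-numbered Hoxa and Hoxb genes mark progenitors of the second heart field that contribute to the outflow tract and atria.

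Promoters are shown for Hoxa5, Hoxa6, Hoxd10 and Hoxd13, the genes with the 4 largest positive differences between DOX and Con described below. Each line gives the 250 bases before the RefSeq transcript start in assembly GRCm38.p6, read along the gene's strand. Capitals mark matches to TATAAA (the TATA box) and CCAAT (the CCAAT box) on either strand, so that ATTGG is a match to the latter on the opposite strand. Hoxa5 lies at chr6:52204588-52204837 on the minus strand, Hoxa6 at chr6:52208673-52208922 on the minus strand, Hoxd10 at chr2:74691641-74691890 on the plus strand and Hoxd13 at chr2:74667975-74668224 on the plus strand.
Hoxa5: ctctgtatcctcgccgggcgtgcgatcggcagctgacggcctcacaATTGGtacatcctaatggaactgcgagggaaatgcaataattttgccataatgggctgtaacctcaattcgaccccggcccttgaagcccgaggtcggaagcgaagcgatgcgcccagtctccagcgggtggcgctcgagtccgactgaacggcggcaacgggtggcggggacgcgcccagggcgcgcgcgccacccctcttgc
Hoxa6: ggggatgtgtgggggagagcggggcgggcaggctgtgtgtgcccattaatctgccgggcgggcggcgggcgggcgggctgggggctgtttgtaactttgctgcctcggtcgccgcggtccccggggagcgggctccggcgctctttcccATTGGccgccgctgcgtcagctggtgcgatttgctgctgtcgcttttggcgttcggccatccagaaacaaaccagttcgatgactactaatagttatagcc
Hoxd10: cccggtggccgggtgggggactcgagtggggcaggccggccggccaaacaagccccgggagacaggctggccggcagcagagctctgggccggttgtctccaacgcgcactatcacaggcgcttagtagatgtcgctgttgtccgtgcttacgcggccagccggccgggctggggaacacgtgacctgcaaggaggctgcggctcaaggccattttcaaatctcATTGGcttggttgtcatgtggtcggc
Hoxd13: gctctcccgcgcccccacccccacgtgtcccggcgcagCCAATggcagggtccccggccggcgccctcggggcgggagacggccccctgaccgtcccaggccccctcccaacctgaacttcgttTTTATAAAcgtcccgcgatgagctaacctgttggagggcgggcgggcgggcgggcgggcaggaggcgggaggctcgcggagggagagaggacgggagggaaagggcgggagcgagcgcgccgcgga

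Each of these 4 promoters held a CCAAT match, and only that of Hoxd13 among them held TATA matches. They were rich in CpG dinucleotides, with 28 in Hoxa5, 24 in Hoxa6, 20 in Hoxd10 and 31 in Hoxd13, against a median of 6 over all 32851 mouse promoters of the same length. Promoters were held for 17 of the 33 members, with 19 starts, and their median was 13. On either strand, CCAAT was found in 12 of the 19 member promoters and in 33.85% of all promoters. TATAAA was found in 3 of 19 (12.37% of all), GGGCGG (the GC box) in 9 of 19 (32.74%), and AGGTCA (the half-site of nuclear receptors such as those of retinoic acid) in 3 of 19 (14.02%). CANNTG (the E-box) was found in 13 of 19 (66.22%) and TAATTA (a homeodomain core) in 2 of 19 (4.84%). These matches describe letters in the sequence, not binding.

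The authors' values are on a log2 scale, on which 1 unit is a doubling, and a probe that detects no transcript still gives a value. A level was therefore set against a receptor limit of 4.71, the 95th percentile of the mean level of 1558 olfactory, vomeronasal and taste receptor genes. Over all 9 arrays, 14 of 33 Hox genes (42.4%) had a mean above that limit, against 12042 of 30050 genes (40.1%). They were Hoxa2, Hoxa5, Hoxa6 and Hoxa10, then Hoxb2, Hoxb3, Hoxb5, Hoxb6 and Hoxb7, then Hoxc6, and Hoxd8, Hoxd9, Hoxd10 and Hoxd13. The Hoxc cluster thus had 1 of 9 members above the limit, while Hoxa had 4 of 8, Hoxb 5 of 9 and Hoxd 4 of 7. The 19 members under the limit had means between 3.34 and 4.62 and array values between 3.05 and 4.93. Hoxb2 (mean 4.98) lay just above the limit and Hoxa4 (4.62) just below it.

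The label of the cells was set against marker genes. Of 18 heart muscle markers, 6 had a mean above the limit. They were Tnnt2, cardiac troponin T, Nkx2-5, a cardiac transcription factor, and Gja5, Mef2c, Hand2 and Actn2. Among the markers under it were Myh6, Nppa, Myl7, Ryr2, Gata4 and Tbx5, which were thus not detected above the receptor genes. Of 12 skeletal muscle markers 7 lay above it, of 8 fibroblast markers 4, of 5 smooth muscle markers 4, and of 6 endothelial and 6 immune markers 0. Mean levels over all arrays ran from 3.30 (Pln) to 7.05 (Tnnt2) for heart markers. The range was 3.45 (Myf6) to 7.87 (Acta1) for skeletal muscle and 3.72 (Tcf21) to 17.0 (Col1a1) for fibroblast markers. For smooth muscle markers it was 4.67 (Myh11) to 15.1 (Acta2). Levels of different genes come from different probes. The maximum value was 19.9315 on 6 arrays (Con replicate 1, DOX replicates 1 to 3 and DOX+IFN-γ replicates 1 and 2) and lower on the other 3. The labels name no such grouping, but it runs across the treatments unevenly. Differences within the 6 arrays are therefore given for the Hox genes called against Con and for Hoxb6, but not for the genes of the lists. Those differences rest on 1 Con array, which is assumed to vary like the other groups. The other arrays held no DOX array and gave no difference between DOX and Con. They were Con replicates 2 and 3 and DOX+IFN-γ replicate 3, and a difference among them was not computed.

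Doxorubicin-treated cells had higher levels of Hoxa6 and Hoxd10 and lower levels of Hoxa10. Hoxd13 (higher) and Hoxa4 (lower, under the receptor limit) were also called, but lost the call under several alternative fits. Hoxa5, the neighbour of Hoxa6, was higher as well, which is a description because the family was selected on it. The Hoxb and Hoxc clusters had no called member. Clusters were not compared, as each held few genes and 1 of 9 Hoxc genes lay above the limit. The threshold for a call was an adjusted p of 0.05 in limma. Leaving aside Hoxa5, 3 of 32 members were called higher in DOX against Con, where 8.06% of all 30050 genes were, and 2 of 32 were called lower, where 7.53% were. These shares are near those of all genes. By cluster, 3 of the 7 other Hoxa genes, 0 of 9 Hoxb, 0 of 9 Hoxc and 2 of 7 Hoxd genes were called. An unadjusted limma p under 0.05 was found for 5 of the 7 other Hoxa genes, 0 Hoxb genes, 1 Hoxc gene and 2 Hoxd genes, against 27.6% of all genes. Of the 13 members above the limit other than Hoxa5, 3 were called higher and 1 lower, where 17.4% and 15.7% of all genes above the limit were. The median difference over the members was -0.05, against -0.01 over all genes tested. Arrays did not overlap between DOX and Con for 14 of 33 members, and between DOX+IFN-γ and Con for 10 of 33, Hoxa5 among them. The share over all genes was not counted, so a lack of overlap below describes the values and is no test.

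**Figure D1:**
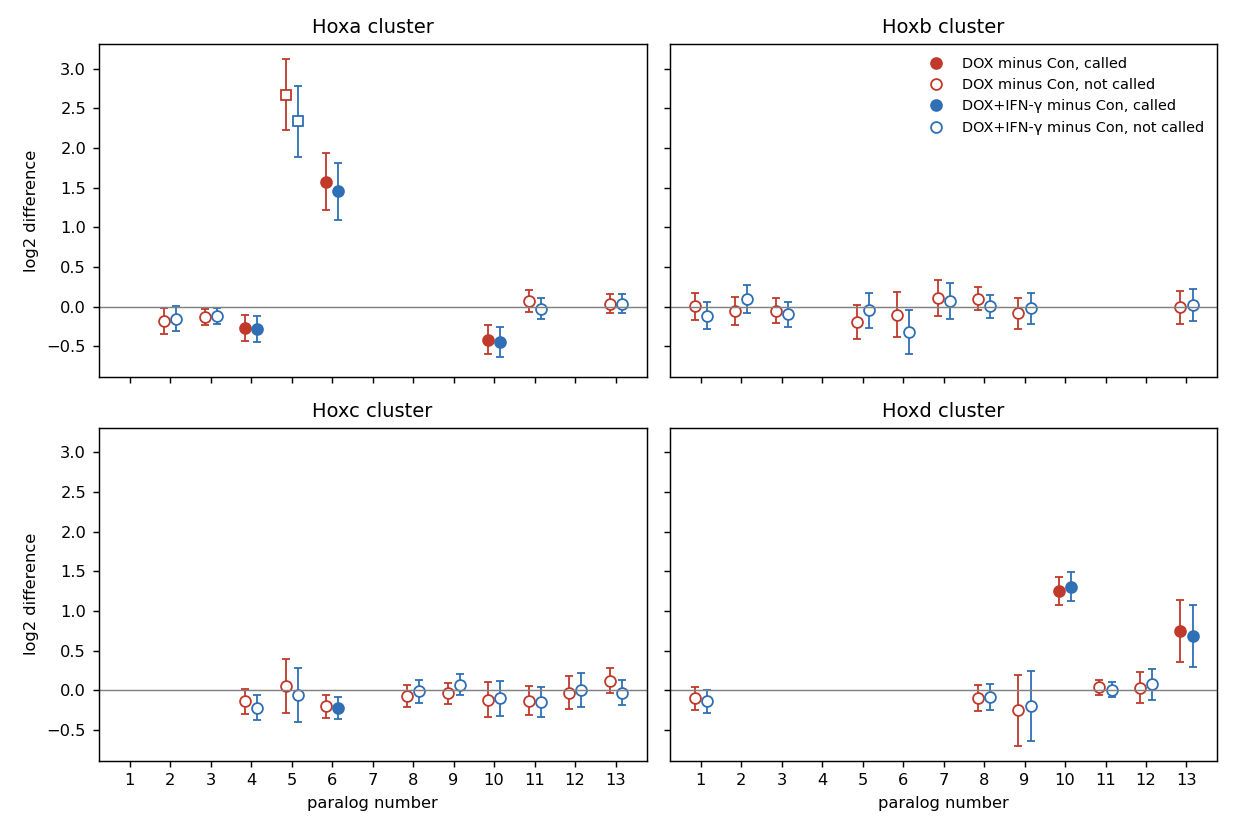
Difference from Con on the log2 scale for each Hox gene by paralog number, 1 panel per Hox cluster; circles are limma estimates, bars 95% intervals and filled circles called genes, while squares mark Hoxa5, drawn as a description. Hoxa5, Hoxa6, Hoxd10 and Hoxd13 stand above 0 in both treated groups, Hoxa4 and Hoxa10 below it, and Hoxc6 is called only for DOX+IFN-γ.

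Hoxa5, known for lung and airway development, lay at 7.91, 7.89 and 7.47 on the Con arrays, at 10.43, 10.56 and 10.29 on the DOX arrays, and at 9.69, 10.47 and 10.13 on the DOX+IFN-γ arrays. All 6 treated arrays were above all Con arrays, and the treated groups overlapped. The mean was 2.67 higher in DOX than in Con (SE 0.196, 6.37-fold), from 7.76 ± 0.25 to 10.43 ± 0.14 (SD, n = 3). It was 2.34 higher in DOX+IFN-γ (SE 0.196, 5.06-fold). Within the 6 arrays of equal maximum, the differences were 2.52 and 2.17. Without Con replicate 3, the lowest Con array, they were 2.53 and 2.20.

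Hoxa6, the neighbour of Hoxa5 and a gene of trunk patterning, lay at 6.18, 6.08 and 5.59 in Con, at 7.33, 7.53 and 7.72 in DOX, and at 7.47, 7.41 and 7.34 in DOX+IFN-γ. Treated and Con arrays did not overlap. Hoxa6 rose by 1.57 in DOX (SE 0.156, 2.98-fold, adjusted p = 0.000261) and by 1.46 in DOX+IFN-γ (SE 0.156, adjusted p = 0.000381). Without Con replicate 3 the differences were 1.39 and 1.27, and within the 6 arrays 1.34 and 1.26.

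Hoxd10, which takes part in limb and motor neuron patterning, lay at 6.69, 6.85 and 6.62 in Con, at 7.84, 8.02 and 8.06 in DOX, and at 8.04, 7.98 and 8.06 in DOX+IFN-γ. The treated arrays were all above the Con arrays. Hoxd10 rose by 1.25 in DOX (SE 0.079, 2.38-fold, adjusted p = 2.73e-05) and by 1.30 in DOX+IFN-γ (SE 0.079, adjusted p = 2.39e-05). Within the 6 arrays it differed by 1.28 and 1.32. Hoxa6 and Hoxd10 were past the threshold under each of the 18 alternative settings tried, in both comparisons with Con, and the Hoxa5 difference between DOX and Con ran from 2.52 to 2.75 over them.

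Hoxd13, a digit patterning gene at the end of its cluster, was the least stable of the 4. It lay at 6.51, 6.33 and 6.05 in Con, at 7.34, 7.03 and 6.75 in DOX, and at 6.97, 6.81 and 7.16 in DOX+IFN-γ. The treated arrays were above the Con arrays by a narrow margin, 6.75 in the lowest treated array against 6.51 in the highest Con array. Hoxd13 rose by 0.75 in DOX (SE 0.170, adjusted p = 0.0184) and by 0.69 in DOX+IFN-γ (SE 0.170, adjusted p = 0.0252). In DOX the gene missed the threshold in 6 of 18 settings, among them without Con replicate 2 (0.76, adjusted p = 0.0514), Con replicate 3 (0.62, adjusted p = 0.0537), DOX replicate 1 (0.60, adjusted p = 0.0598) or DOX replicate 2 (0.75, adjusted p = 0.0557). The call in DOX+IFN-γ was likewise lost in 6 of 18 settings, among them without Con replicate 2 or 3 or DOX+IFN-γ replicate 1 or 3 (adjusted p from 0.0638 to 0.0796). Within the 6 arrays it differed by 0.53 (adjusted p = 0.256) in DOX and 0.38 (adjusted p = 0.454) in DOX+IFN-γ.

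Hoxa10, a gene of uterine and lumbar development, moved the other way. It lay at 7.19, 6.99 and 7.23 in Con, at 6.70, 6.64 and 6.84 in DOX, and at 6.69, 6.77 and 6.62 in DOX+IFN-γ. All treated arrays were below all Con arrays. Hoxa10 fell by 0.42 in DOX (SE 0.082, adjusted p = 0.00914) and by 0.45 in DOX+IFN-γ (SE 0.082, adjusted p = 0.00593). It kept the call in 17 of 18 settings and missed it within the 6 arrays, at -0.47 in both comparisons (adjusted p = 0.0513 and 0.0649).

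Hoxa4, a gene of neck and upper trunk patterning, had Con values of 4.66, 4.81 and 4.93, DOX values of 4.49, 4.53 and 4.57 and DOX+IFN-γ values of 4.46, 4.55 and 4.55. The Con arrays were above all treated arrays, the treated groups overlapped, and their values lay under the receptor limit. Hoxa4 fell by 0.27 in DOX (SE 0.072, adjusted p = 0.0363) and by 0.28 in DOX+IFN-γ (SE 0.072, adjusted p = 0.0302). The call in DOX was held in 6 of 17 settings and lost, among others, without Con replicate 2 or 3, without any single DOX array, and without DOX+IFN-γ replicate 2 or 3, with adjusted p from 0.0533 to 0.122 in these. The call in DOX+IFN-γ was held in 7 of 17 settings and lost, among others, without Con replicate 2 or 3, DOX replicate 2 or any single DOX+IFN-γ array, with adjusted p from 0.0505 to 0.101 in these. Within the 6 arrays the differences were -0.13 (adjusted p = 0.413) and -0.16 (adjusted p = 0.360).

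**Figure D2:**
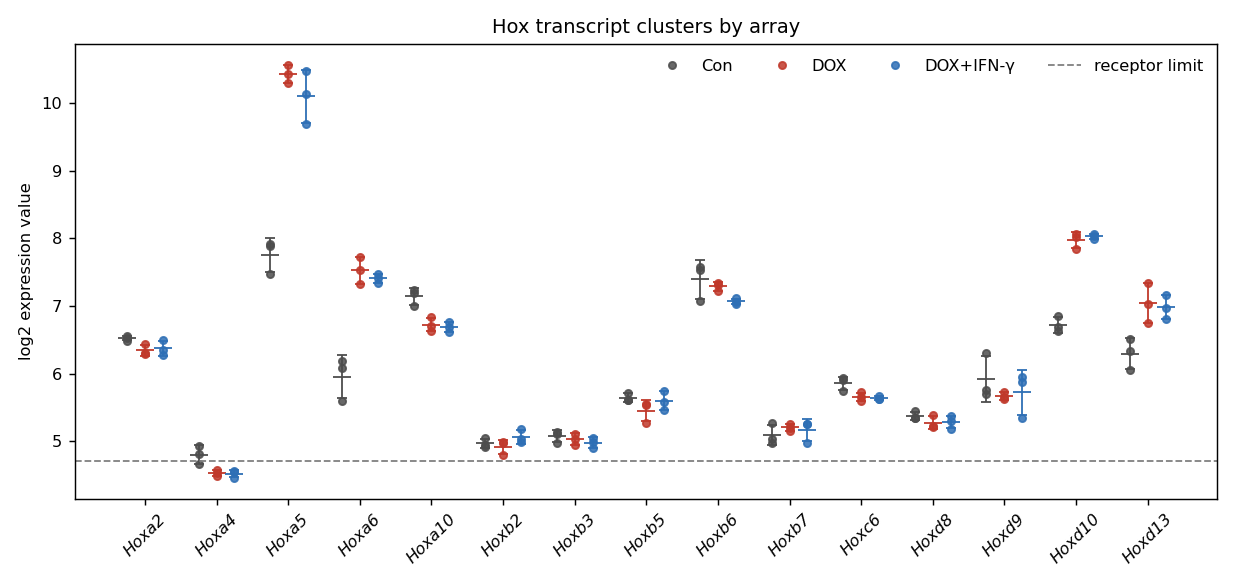
log2 expression value of each array for the 14 Hox genes with a mean above the receptor limit (dashed line) and Hoxa4; points are arrays, horizontal marks means and bars SD (n = 3). Arrays of both treated groups do not overlap those of Con for Hoxa5, Hoxa6, Hoxd10 and Hoxd13 (higher) and for Hoxa4, Hoxa10 and Hoxc6 (lower). For Hoxc6 the margin is narrow, 5.72 in the highest treated array against 5.75 in the lowest Con array. Its DOX difference is not called. Heights of different genes come from different probes and are not compared.

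The remaining members above the limit had smaller differences. Hoxc6, a thoracic and mammary patterning gene, lay at 5.93, 5.75 and 5.90 in Con, at 5.65, 5.72 and 5.59 in DOX, and at 5.67, 5.62 and 5.62 in DOX+IFN-γ. Its arrays did not overlap between Con and either treated group. The difference was -0.20 in DOX (SE 0.062, adjusted p = 0.0605), and Hoxc6 fell by 0.22 in DOX+IFN-γ (SE 0.062, adjusted p = 0.0398). The latter call held in 8 of 18 settings and was lost without Con replicate 1 or 3, DOX replicate 1, or any single DOX+IFN-γ array, with adjusted p up to 0.113 in these. The DOX difference passed the threshold without Con replicate 2 (-0.26, adjusted p = 0.0294). Within the 6 arrays Hoxc6 differed from Con by -0.27 in DOX and -0.29 in DOX+IFN-γ.

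Hoxb6, a gene of trunk and limb field patterning, turned on 1 control array. It lay at 7.58, 7.52 and 7.07 in Con, at 7.22, 7.34 and 7.31 in DOX, and at 7.11, 7.03 and 7.06 in DOX+IFN-γ. Con replicate 3 lay below every DOX array, while the other Con arrays lay above all treated arrays. The difference was -0.10 in DOX (SE 0.123, adjusted p = 0.689) and -0.32 in DOX+IFN-γ (SE 0.123, adjusted p = 0.118). Without Con replicate 3 they became -0.26 (adjusted p = 0.0227) and -0.48 (adjusted p = 0.00145). Within the 6 arrays they were -0.29 and -0.51. Con replicate 3 was also the lowest Con array for Hoxa5, Hoxa6, Hoxd10 and Hoxd13 and the highest for Hoxa4 and Hoxa10.

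Hoxa2, which patterns the hindbrain and the second branchial arch, lay at 6.52, 6.56 and 6.49 in Con, at 6.43, 6.31 and 6.29 in DOX, and at 6.27, 6.35 and 6.49 in DOX+IFN-γ. DOX arrays were below Con arrays without overlap, by 0.18 on average (SE 0.069, adjusted p = 0.125). Hoxb5, known for work in enteric neural crest, lay at 5.60, 5.72 and 5.61 in Con, at 5.53, 5.55 and 5.28 in DOX, and at 5.74, 5.47 and 5.58 in DOX+IFN-γ. Its DOX arrays were below the Con arrays too, with a difference of -0.19 (SE 0.095, adjusted p = 0.240). Hoxd9, a lumbar and limb patterning gene, lay at 5.76, 5.70 and 6.31 in Con, at 5.65, 5.73 and 5.62 in DOX, and at 5.34, 5.88 and 5.94 in DOX+IFN-γ. Con replicate 3 stood highest there and the groups overlapped, with a difference of -0.26 in DOX (SE 0.194).

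Hoxb2 and Hoxb3 are hindbrain segment genes near the low-numbered end of their cluster. Hoxb2 lay at 4.94, 5.04 and 4.92 in Con, at 4.97, 4.99 and 4.79 in DOX, and at 4.99, 5.18 and 5.03 in DOX+IFN-γ. Hoxb3 lay at 4.98, 5.14 and 5.11 in Con, at 5.11, 5.03 and 4.94 in DOX, and at 4.89, 4.99 and 5.05 in DOX+IFN-γ. For both genes all 3 groups overlapped. Hoxb7 lay at 5.27, 5.03 and 4.98 in Con, at 5.25, 5.20 and 5.16 in DOX, and at 4.98, 5.26 and 5.26 in DOX+IFN-γ. Hoxd8 lay at 5.34, 5.34 and 5.45 in Con, at 5.39, 5.22 and 5.21 in DOX, and at 5.19, 5.31 and 5.37 in DOX+IFN-γ. Their groups overlapped as well, and the differences between DOX and Con were -0.05 for Hoxb2, -0.05 for Hoxb3, 0.11 for Hoxb7 and -0.10 for Hoxd8. None of these 4 was past the threshold in any of the 3 comparisons.

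Of the 19 members under the limit, 18 were not called in DOX against Con and the called one was Hoxa4. Their differences ran from -0.27 to 0.12, with a median of -0.03. RMA, the routine by which the values were made, compresses differences of dim probes, so these values do not show that the genes were unaffected.

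The changes from Con to DOX were set side by side for 6 pairs of genes that share a paralog number or a border. The pairs were picked after their values were seen, so they say nothing of other pairs and their differences are given without a test. The change was 2.86 larger for Hoxa5 than for Hoxb5 (SE 0.139), 1.67 larger for Hoxa6 than for Hoxb6 (SE 0.093), and 1.78 larger for Hoxa6 than for Hoxc6 (SE 0.242). In paralog group 10, it was 1.67 larger for Hoxd10 than for Hoxa10 (SE 0.158). In paralog group 13, it was 0.71 larger for Hoxd13 than for Hoxa13 (SE 0.219), whose probes lay under the limit. Next to each other on chromosome 6, Hoxa5 and Hoxa4 differed by 2.94 (SE 0.235), while the neighbours Hoxa5 and Hoxa6 were both higher. On chromosome 2, Hoxd11 and Hoxd12, which lie between Hoxd10 and Hoxd13, differed from Con by 0.04 and 0.03 and lay under the limit.

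Some gene spans in RefSeq overlap, so that probes of an intron or long transcript of 1 gene can lie within another. The span of Hoxa3 overlaps those of Hoxa4, Hoxa5 and Hoxa6, and that of Hoxd11 overlaps Hoxd10. The Hoxa3 cluster of probes differed by -0.13 in DOX (SE 0.044, adjusted p = 0.0933) and that of Hoxd11 by 0.04 (SE 0.042). Both lay under the receptor limit, and the part of overlapping spans in the differences was not tested. In cells as a bulk, more RNA per cell and more cells with the RNA cannot be told apart.

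Adding interferon gamma to doxorubicin gave no called Hox gene. In DOX+IFN-γ against DOX, limma called 0 of 33 members and 0 of all 30050 genes (0% in either direction), and 0 members and 1503 genes had an unadjusted p under 0.05. The differences ran from -0.33 (Hoxa5) to 0.15 (Hoxb2), with a median of -0.02 against -0.01 over all genes. For Hoxa5 the difference was -0.33 with a 95% interval from -0.78 to 0.12. It uses the DOX arrays on which the family was selected, so it is a description and bounds no effect. DOX+IFN-γ replicate 1, at 9.69, was the lowest treated array for this gene. For Hoxa6 the interval ran from -0.48 to 0.24, for Hoxd10 from -0.13 to 0.24, for Hoxd13 from -0.45 to 0.33 and for Hoxa10 from -0.22 to 0.15. Hoxb6 had lower values on every DOX+IFN-γ array than on any DOX array, with a difference of -0.22 (SE 0.123, 95% interval -0.50 to 0.06). In this comparison 4 of 33 members had arrays without overlap, and the share over all genes was not counted.

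**Figure D3:**
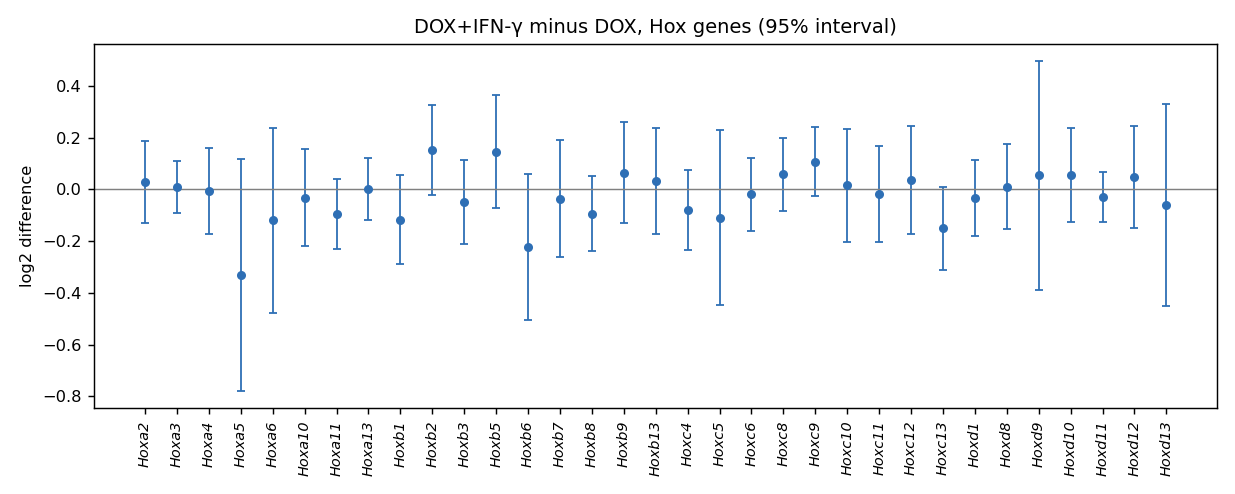
Difference between DOX+IFN-γ and DOX on the log2 scale for the 33 Hox genes; points are limma estimates and bars 95% intervals from 3 arrays per group. Every interval includes 0, with the lowest estimate for Hoxa5 (-0.33) and the highest for Hoxb2 (0.15). The Hoxa5 value is a description, as it uses the DOX arrays on which the family was selected.

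DOX+IFN-γ against Con uses the Con arrays of the first comparison and the DOX+IFN-γ arrays of the second, so its values are not independent of either. Leaving aside Hoxa5, it called 3 of 32 members higher, where 8.01% of all genes were, and 3 of 32 lower, where 9.41% were. The higher genes were Hoxa6, Hoxd10 and Hoxd13 and the lower ones Hoxa4, Hoxa10 and Hoxc6, with the values given above.

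**Figure D4:**
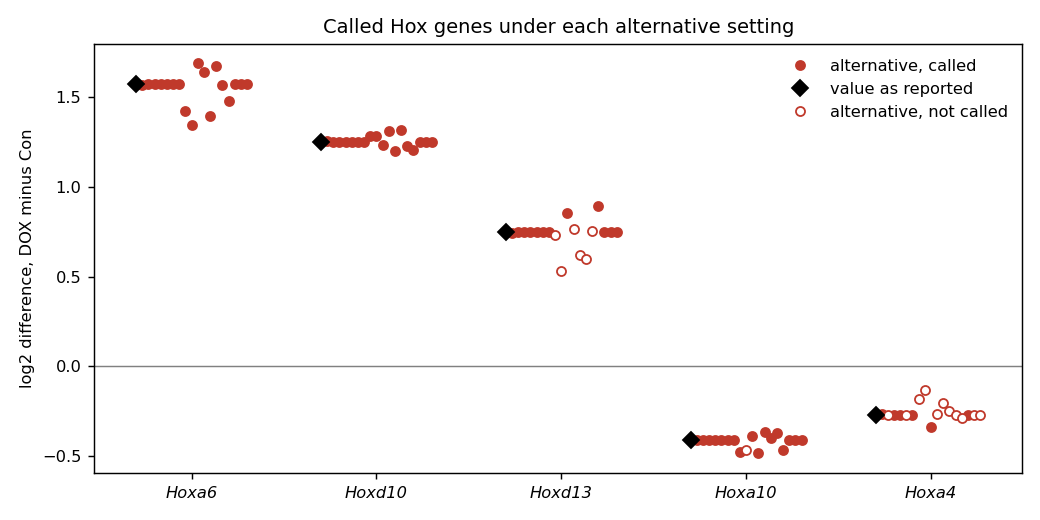
DOX minus Con on the log2 scale for the 5 Hox genes called besides Hoxa5, as reported (diamonds) and under each alternative setting (circles, filled where called). Hoxa6 and Hoxd10 keep filled circles throughout, Hoxa10 has 1 open circle, and Hoxd13 and Hoxa4 lose the call in several settings without a change of sign.

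Genes that work with or on Hox genes were described from lists of cofactors, chromatin regulators, retinoic acid genes and cluster neighbours. As background, calls were made for 8.06% (higher) and 7.53% (lower) of all genes, and for 17.4% and 15.7% of those above the limit. Of 8 TALE cofactor genes measured, 7 lay above the limit, 0 were called higher and 2 lower in DOX against Con (list median -0.14). Meis1, a cofactor that binds DNA with Hox proteins, fell by 0.77 (SE 0.113, adjusted p = 0.00204). Its level was 8.61 ± 0.22 in Con, 7.84 ± 0.02 in DOX and 8.02 ± 0.15 in DOX+IFN-γ (SD, n = 3). Pknox2, of the Prep family, fell by 0.37 (SE 0.070, adjusted p = 0.00729). Both kept the call under all 18 settings.

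Of 12 trithorax and H3K27 demethylase genes, 12 lay above the limit, 2 were called higher and 2 lower (list median -0.08), near the share of all genes above the limit. Dpy30, a subunit of the histone H3 lysine 4 methyltransferase complexes, fell by 1.48 (SE 0.097, adjusted p = 3.23e-05). Kdm6b, an H3K27 demethylase, rose by 0.83 (SE 0.073, adjusted p = 0.000141), and Rbbp5, a core subunit of the same methyltransferases, rose by 0.45 (SE 0.064, adjusted p = 0.00168). Mllt3, a partner of the elongation and Dot1l machinery, fell by 0.81 (SE 0.175, adjusted p = 0.0142), and without DOX replicate 1 the difference was -0.81 with the call missed (adjusted p = 0.0509). The list thus held subunits of 1 complex that moved in opposite directions.

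Of 21 Polycomb genes, 18 lay above the limit, 3 were called higher and 4 lower (list median -0.06), again near that share. Ezh2, the H3K27 methyltransferase, fell by 0.90 (SE 0.089, adjusted p = 0.000247). Its level was 9.25 ± 0.18 in Con and 8.35 ± 0.06 in DOX (SD, n = 3). Jarid2, which helps bring the complex to its targets, fell by 0.66 (SE 0.070, adjusted p = 0.000374). The histone-binding subunits Rbbp4 and Rbbp7, which other chromatin complexes also use, fell by 0.75 (SE 0.080) and 0.74 (SE 0.132). Rbbp7 was not called after quantile normalization (-0.31, adjusted p = 0.353). The 3 higher genes, named after their values were seen, were Phc3 (0.35), Bmi1 (0.33) and Eed (0.31).

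Of 17 retinoic acid pathway genes, 4 lay above the limit, 1 was called higher and 0 lower (list median 0.02). The gene called was Rarg, a retinoic acid receptor, which rose by 0.26 (SE 0.067, adjusted p = 0.0309). It held the call in 11 of 18 settings and lost it without Con replicate 1 or 2 or DOX replicate 1 or 2, with adjusted p from 0.0787 to 0.107. Of 6 caudal and ParaHox genes, 0 were called in limma and 1 had an unadjusted p under 0.05, where 27.6% of all genes did. Of 6 non-coding RNA genes of the Hox clusters measured, 0 were called and 2 had an unadjusted p under 0.05, against the same 27.6%. These were Hotair of the Hoxc cluster (0.22, adjusted p = 0.104) and Hoxb3os (0.11, adjusted p = 0.125).

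Of 17 genes that flank the Hox clusters, 11 lay above the limit, 1 was called higher and 3 lower (list median 0.03). Atp5g2, a subunit c gene of the mitochondrial ATP synthase beside the Hoxc cluster, fell by 1.78 (SE 0.124, adjusted p = 4.02e-05). Calcoco1, a coiled-coil coactivator and autophagy receptor gene, rose by 0.56 (SE 0.068, adjusted p = 0.000768). Cbx5 and Cbx1, heterochromatin protein genes, fell by 0.54 (SE 0.059, adjusted p = 0.000446) and 0.23 (SE 0.054, adjusted p = 0.0215). The last was called in 11 of 18 settings and lost without Con replicate 1 or 2 or DOX replicate 1 or 2 (adjusted p from 0.0630 to 0.0813). The measured genes that flank the Hoxa and Hoxd clusters had no called member. In DOX+IFN-γ against DOX, 0 genes of any of these lists were called by limma.

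**Figure D5:**
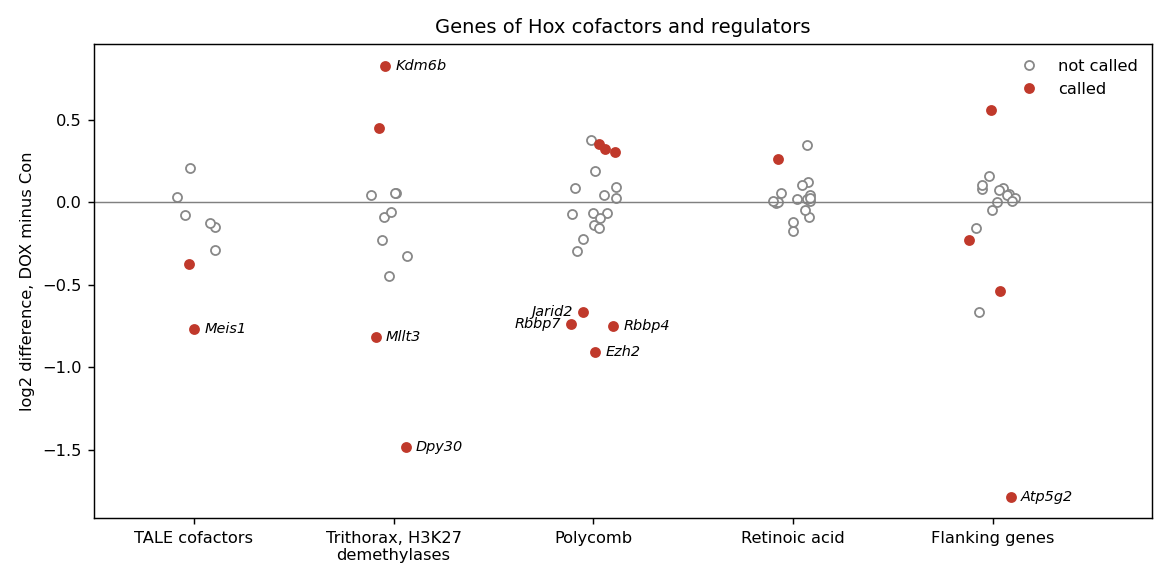
DOX minus Con on the log2 scale for each measured gene of 5 lists that relate to Hox genes; filled points are called genes and the horizontal scatter within a list carries no value. Falls of Dpy30 (-1.48), Ezh2 (-0.90), Meis1 (-0.77) and Atp5g2 (-1.78) and the rise of Kdm6b (0.83) stand apart from most members, which lie near 0.

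Marker genes of other cell types moved with doxorubicin as well. In DOX against Con, with the same 8.06% and 7.53% as background, 2 of 12 skeletal muscle markers were called higher and 4 lower. Myog, a transcription factor of muscle differentiation, fell by 3.42 (SE 0.138), more than any Hox gene changed, while Myod1 was higher by 0.76 (SE 0.172) and the muscle genes Acta1 and Tnnt3 fell by 0.70 (SE 0.109) and 0.55 (SE 0.067). The Myod1 call was lost without Con replicate 1 or 3 or DOX replicate 1 or 2 (adjusted p from 0.0552 to 0.0715). The mean level of the list was 5.24 to 5.34 on Con arrays, 4.92 to 5.02 on DOX arrays and 4.86 to 4.95 on DOX+IFN-γ arrays.

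Of 8 fibroblast markers 1 was called higher and 4 lower, with list means of 8.06 to 8.24 in Con, 7.63 to 7.64 in DOX and 7.64 to 7.69 in DOX+IFN-γ. The lower ones were the collagen genes Col3a1 (-1.87), Col1a1 (-1.13) and Col1a2 (-1.03) and the proteoglycan gene Lum (-0.38). After quantile normalization Col1a1 differed by -0.72 (adjusted p = 0.0522). Of 18 heart muscle markers 0 were called higher and 3 lower, with list means of 4.70 to 4.72, 4.53 to 4.60 and 4.56 to 4.58. The lower ones were Gja5, an atrial gap junction gene (-1.25), Tnnt2 (-1.24) and Hand2 (-0.35), the last not called without Con replicate 1 or 3 (adjusted p = 0.0521 and 0.0656). Of 5 smooth muscle markers 1 was called higher and 2 lower, with list means of 9.11 to 9.22, 8.79 to 8.93 and 8.72 to 8.84. Of these, Cnn1 (-1.29) and Acta2 (-0.47) were lower and Smtn (0.36) higher, and Acta2 differed by -0.08 after quantile normalization (adjusted p = 0.707). Of 6 endothelial and 6 immune markers 0 were called by limma, and 0 had an unadjusted p under 0.05. The part of these differences in the Hox differences was not tested.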

How the data were processed

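RNA was measured on 9 Affymetrix mouse arrays. The deposited log2 values were made by the authors with RMA (background correction, normalization and probe summary), per the submitters' processing notes; its version is not given in the sources used here. That the scale is log2 was read from their range, 2.29 to 19.9. Of 65527 transcript clusters, 30376 had a single symbol in the platform annotation and gave 30050 genes, the cluster with the highest mean standing for a gene with several. Group means were fitted to all 9 arrays with limma 3.58.1 in R 4.3.3 (lmFit, eBayes, two-sided, 6 residual and 2.41 prior degrees of freedom), with Benjamini-Hochberg adjustment over all 30050 genes, and the procedure was tested on simulated data. With 3 arrays per group, the number of arrays limits the precision. Array values were given for every Hox gene called or above the receptor limit, and of each list the counts and up to 4 called genes by size of change, with 3 further Polycomb genes. The members, lists and alternatives were chosen with earlier results of these data known.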

Additional observations from a re-analysis of the deposited data

How the results depend on the processing

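The 18 alternatives changed the normalization, the filter on dim genes, the features tested, the handling of several clusters, the variance prior, the arrays in the fit and the block, and left out each array in turn. Within the 6 arrays of equal maximum, which hold 1 Con array, the differences of DOX and of DOX+IFN-γ from Con were 1.34 and 1.26 for Hoxa6. For Hoxd10 they were 1.28 and 1.32. Leaving out 1 array gave 4 to 6 called Hox genes in DOX against Con and 4 to 8 in DOX+IFN-γ against Con. In the latter, the low of 4 came without DOX+IFN-γ replicate 1 and also without replicate 3. Each count includes Hoxa5, whose call is no test because the family was selected on it. With all 9 arrays and Hoxa5 left aside, 5 and 6 members were called. Over all 30050 genes, leaving out 1 array gave 3329 to 4568 called genes in DOX against Con, against 4687 with all 9 arrays. In DOX+IFN-γ against Con it gave 3770 to 4974, against 5234 with all 9 arrays. DOX+IFN-γ against DOX gave 0 Hox genes under every alternative, and over all genes 0 except 1 without Con replicate 3. Of 1885 values of named genes under the alternatives, 1752 stayed on their side of the threshold with their sign or were uncalled throughout, 127 lost the call, 6 gained it and 0 called values changed sign. With the replicate block, 6 Hox genes, Hoxa5 counted, were called in each comparison with Con, and Hoxc6 lost its call in DOX+IFN-γ against Con (adjusted p = 0.0715). Deviations of same-numbered arrays correlated between -0.16 and 0.36, over 0.1 in 3 of 9 pairs, so the numbers were not taken as pairs. Signal over background limits the 19 dim members.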
